A study of Mus musculus with 20 samples.

Results

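Hox genes encode homeodomain transcription factors that give cells of the embryo their position along the head-to-tail axis and, later, along the limbs and genital tract. In mammals they lie in 4 clusters, HoxA to HoxD, and genes of the same number in different clusters are paralogues, with low numbers switched on early and acting anteriorly and high numbers acting posteriorly. In embryonic stem cells the clusters are a textbook example of Polycomb-repressed chromatin, and retinoic acid and Cdx proteins are known activators of them. All probes of the array whose name was a Hox letter followed by a paralogue number were taken, which gave 44 probes of 39 genes, of 55681 probes and 36492 names in all. The 39 genes were 11 HoxA, 10 HoxB, 9 HoxC and 9 HoxD genes, and where a gene had more than 1 probe the brightest stood for it. Of the 39 genes, 30 were well above background on at least 4 of the 20 arrays and were tested.

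RNA was measured in 10 mouse lines with 2 single-colour (Cy3) arrays each: 7 lines of induced pluripotent stem cells (iPSC), which were reprogrammed from somatic cells, and 3 lines of embryonic stem cells (ESC). The labels grade the iPSC lines by quality, and their names give the factor set, OSKM for Oct4, Sox2, Klf4 and Myc, and SNEL for the alternative set of Sall4, Nanog, Esrrb and Lin28. In the order used below, Nanog-GFP OSKM#2 is the first poor line, followed by Oct4-GFP OSKM#2 and then by KH2_OSKM. BC_2 OSKM and Nanog-GFP SNEL#3 are graded good, and Nanog-GFP SNEL#2 and Oct4-GFP SNEL#1 high. Of the ESC lines KH2 ESCs comes first, then Nanog-GFP ESCs, and last Oct4-GFP ESCs. All lines, controls included, grew untreated in 2i medium, a serum-free medium with 2 kinase inhibitors that holds mouse stem cells in a naive state, and without feeder cells. Each grade holds 2 or 3 lines, the labels do not say how quality was scored, whether a line is 1 clone, or whether its 2 arrays had separate cultures as their source, and p-values therefore measure the spread between these lines. A level is the log2 processed intensity of a probe minus the 75th percentile of its array, as the mean of the 2 arrays of a line, so that a level of 0 is a signal at that percentile. Levels of different probes are not compared with each other.

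The arrays differed in how much they detected, and this bears on every count of Hox genes below. Between 48.8% and 77.2% of all probes of an array were well above background by the scanner's flag. The highest share was on array 1 of KH2_OSKM, whose array 2 had 58.2%, and the lowest was on array 1 of Nanog-GFP SNEL#3, whose array 2 had 51.4%. Oct4-GFP SNEL#1 had 49.5% on array 1 and 68.0% on array 2. All 15 genes of a list of pluripotency genes were well above background on both arrays of each of the 10 lines. Of 23 fibroblast genes 20 were tested, and between 3 and 13 of them were above background on both arrays of the poor and good lines, 12 and 17 in the high lines and 19 in each ESC line. Of the slides, which hold several arrays each, slide 1 held array 1 of the iPSC lines and of KH2 ESCs, slide 2 the other iPSC arrays but array 2 of Oct4-GFP SNEL#1 and array 1 of the other ESC lines, and slide 3 the rest. All values are only as precise as this number of arrays allows.

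Hox transcripts were detected in every line, in fewest number in Nanog-GFP SNEL#3. The number of Hox genes well above background on both arrays was 22 in Nanog-GFP OSKM#2, 24 in Oct4-GFP OSKM#2 and 22 in KH2_OSKM. It was 23 in BC_2 OSKM, 6 in Nanog-GFP SNEL#3, and 16 in each of Nanog-GFP SNEL#2 and Oct4-GFP SNEL#1. It was 19 in KH2 ESCs, 25 in Nanog-GFP ESCs and 21 in Oct4-GFP ESCs. Nanog-GFP SNEL#3 was therefore low among the lines and by this rule the other 2 SNEL lines lay below the OSKM and ESC lines. Counted on at least 1 of 2 arrays, Oct4-GFP SNEL#1 had 30 Hox genes, more than the 23 to 28 of the ESC lines and the 26 of Nanog-GFP OSKM#2 and of BC_2 OSKM, while Nanog-GFP SNEL#2 had 21, so that the place of Oct4-GFP SNEL#1 depends on the rule. Those counts are 15.4% of the 39 Hox genes in Nanog-GFP SNEL#3, where 52.7% of all genes passed the same rule, and 41.0% in both high lines, where 60.5% and 56.1% of all genes did. In the other lines the Hox share ran from 48.7% to 64.1% and the share of all genes from 63.4% to 68.3%, 65.5%, 68.3%, 63.4% and 63.7% in the OSKM lines and 64.1%, 67.5% and 67.7% in the ESC lines. On single arrays the Hox count followed the same arrays that detected more in general: 36 on array 1 and 23 on array 2 of KH2_OSKM, and 16 and 30 on those of Oct4-GFP SNEL#1. The lowest level that counted as well above background on an array was -4 and -4.457 in Nanog-GFP SNEL#3. It was -6.315 to -5.043 in the OSKM and ESC lines, and -4.218 and -6.277 in Oct4-GFP SNEL#1. Hoxc9 was thus at -4.67 in Nanog-GFP SNEL#3 with 0 arrays above background and at -4.73 in KH2 ESCs with 2. A gene counted as not detected in Nanog-GFP SNEL#3 therefore need not be lower there than in other lines. The part that array-wide detection plays in the Hox counts was not tested.

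**Figure D1:**
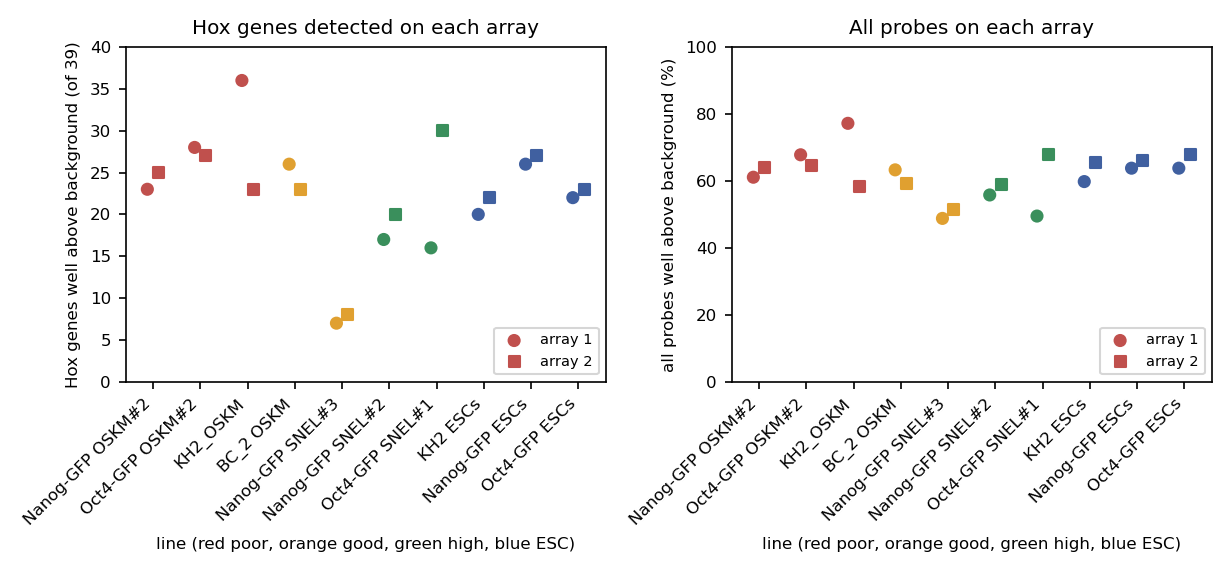
Number of Hox genes (of 39, left) and percentage of all probes (right) well above background on array 1 (circles) and array 2 (squares) of each line, coloured by grade. Nanog-GFP SNEL#3 has the fewest Hox genes, 7 and 8, and the arrays of KH2_OSKM and of Oct4-GFP SNEL#1 differ from each other in both panels.

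Over genes, 5 Hox genes, among them Hoxa7, Hoxb9, Hoxc4 and Hoxc13, were well above background on all 20 arrays, which is 12.8% of the 39, against 50.4% of all genes. A further 20 were above background on 10 to 19 arrays, and 2, Hoxb1 and Hoxd12, on none. Those on at least 10 arrays were 6 of 11 HoxA, 5 of 10 HoxB, 7 of 9 HoxC and 7 of 9 HoxD genes. By paralogue number they were 7 of 12 genes of groups 1 to 4, 6 of 11 of groups 5 to 8 and 12 of 16 of groups 9 to 13, so that detection was not limited to either end of the clusters. The 9 genes on fewer than 4 arrays were Hoxa11, Hoxa13, Hoxb1, Hoxb5, Hoxb8, Hoxc5, Hoxc8, Hoxd3 and Hoxd12. Of the 39, 25 genes were on at least 10 arrays, and those reported by line below are shown in the map of levels.

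**Figure D2:**
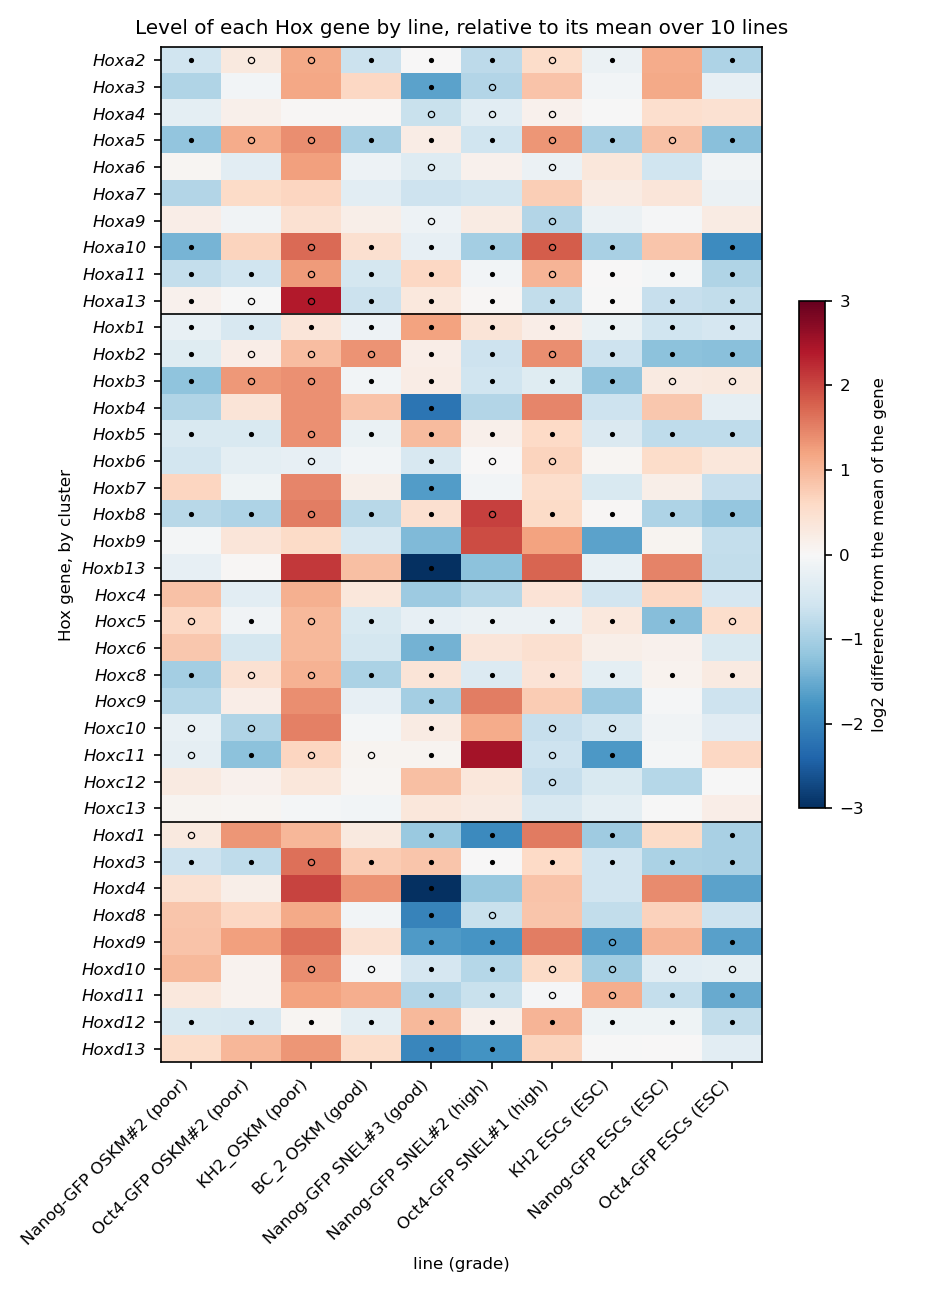
Log2 level of 38 Hox genes in each line relative to the mean of that gene over 10 lines (colour scale from -3 to 3, larger values drawn at the ends). A dot marks a line in which neither array was well above background and an open circle a line in which 1 of 2 was. KH2_OSKM is mostly red and Nanog-GFP SNEL#3 mostly blue among the genes without dots elsewhere.

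In the HoxA cluster on chromosome 6, Hoxa3 and Hoxa7 differed between lines by more than their arrays did, whereas in Hoxa4, Hoxa6 and Hoxa9 the range over lines was smaller than the largest difference between arrays of a line. Hoxa3, needed for the thymus and parathyroid, lay at -4.65, -3.83 and -2.59 in the poor lines, -3.12 and -5.35 in the good lines, -4.62 and -2.88 in the high lines and -3.83, -2.60 and -3.98 in the ESC lines. It was not well above background in Nanog-GFP SNEL#3, its highest lines were KH2_OSKM, Nanog-GFP ESCs and Oct4-GFP SNEL#1, and the arrays of a line differed by at most 1.5. Hoxa7, which patterns the thoracic vertebrae, lay at -2.92, -1.47 and -1.39 in the poor lines, -2.36 and -2.65 in the good lines, -2.59 and -1.30 in the high lines and -1.80, -1.68 and -2.21 in the ESC lines. Its lowest line was Nanog-GFP OSKM#2, and the arrays of a line differed by 0.73 at most and by 0.20 in the median.

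Hoxa4, Hoxa6 and Hoxa9, the last known for its role in blood stem cells and leukaemia, gave lines that their arrays do not tell apart. Hoxa4 lay between -4.55 and -3.37 over the 10 lines, with a median of -3.85, with arrays of a line up to 1.63 apart. Hoxa9 lay between -4.93 and -3.59 over the 10 lines, with a median of -3.98, and its 2 probes were above background on 18 and 17 arrays, with arrays of a line up to 2.00 apart. Hoxa6 lay at -4.02, -4.39 and -2.84 in the poor lines, -4.22 and -4.46 in the good lines, -3.94 and -4.24 in the high lines and -3.74, -4.68 and -4.18 in the ESC lines. KH2_OSKM was the high line of Hoxa6, but in this gene the arrays of a line differed by 1.04 in the median and by up to 2.21. Hoxa2, a regulator of the second branchial arch, was above background on both arrays of Nanog-GFP ESCs, at -5.34, and on 1 array each of Oct4-GFP OSKM#2, KH2_OSKM and Oct4-GFP SNEL#1. Hoxa10, a regulator of the uterus and vertebrae, was above background on both arrays of Oct4-GFP OSKM#2, at -5.28, and of Nanog-GFP ESCs, at -5.11, and on 1 array each of KH2_OSKM and Oct4-GFP SNEL#1, at -4.24 and -4.12 as line means. The same 4 lines held all 4 detections of Hoxa5, a lung regulator, which were on 1 array each. Hoxa11 and Hoxa13, limb and genital tract genes, were above background on 2 arrays each, 1 of them array 1 of KH2_OSKM in both cases.

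In the HoxB cluster on chromosome 11, Hoxb4 and Hoxb13 were high in KH2_OSKM and Oct4-GFP SNEL#1 and low in Nanog-GFP SNEL#3, while Hoxb9 was highest in another line. Hoxb4, a gene used to expand blood stem cells in culture, lay at -3.33, -2.04 and -1.05 in the poor lines, -1.56 and -4.62 in the good lines, -3.30 and -0.96 in the high lines and -3.03, -1.60 and -2.70 in the ESC lines. Oct4-GFP SNEL#1 and KH2_OSKM were the high lines, Nanog-GFP SNEL#3 was not well above background, and the arrays of a line differed by at most 0.51. Hoxb13, the gene at the far posterior end of the cluster, known from the prostate and tail bud, lay at -2.10, -1.82 and 0.26 in the poor lines, -0.94 and -5.70 in the good lines, -3.07 and -0.10 in the high lines and -2.07, -0.37 and -2.59 in the ESC lines. Its range over lines, 5.96, was larger than the largest difference between arrays of a line, 0.67. Nanog-GFP SNEL#3 was not well above background, and the remaining 9 lines ranged from -3.07 to 0.26.

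Hoxb9, a thoracic gene above background on all arrays, lay at -1.91, -1.48 and -1.28 in the poor lines, -2.33 and -3.16 in the good lines, 0.11 and -0.64 in the high lines and -3.46, -1.76 and -2.55 in the ESC lines. Nanog-GFP SNEL#2 was the highest line and KH2 ESCs the lowest, and the arrays of a line differed by at most 0.45. Hoxb7, which acts in the trunk, lay at -3.39, -4.17 and -2.57 in the poor lines, -3.86 and -5.72 in the good lines, -4.12 and -3.52 in the high lines and -4.50, -3.87 and -4.73 in the ESC lines, highest in KH2_OSKM and not well above background in Nanog-GFP SNEL#3. Hoxb6, a trunk and limb gene, lay at -5.10, -4.83 and -4.80 in the poor lines, -4.62 and -5.02 in the good lines, -4.54 and -3.87 in the high lines and -4.48, -4.00 and -4.21 in the ESC lines. The 3 poor lines were below the 3 ESC lines in Hoxb6, with no overlap, as in 10.7% of all genes, in a total range of 1.23. Among the dim genes, Hoxb2, active in the hindbrain and facial nerve, was above background on 1 array each of Oct4-GFP OSKM#2, KH2_OSKM, BC_2 OSKM and Oct4-GFP SNEL#1 and on no ESC array. Hoxb3 was above background on 4 arrays, Hoxb8 on 2 and Hoxb5 on 1. Hoxb1, a hindbrain gene, had 10 spots per array: 6 of the 200 spot values exceeded a signal of 50, up to 1070, against a median of 4.05, and the scanner software had flagged all 6 as outliers. None of its unflagged spots was well above background, and Hoxb1 was counted as not detected.

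The HoxC cluster on chromosome 15 held genes that went with the others and genes that did not. Hoxc4, which acts in the neck region and in the spinal cord, lay at 0.54, -0.66 and 0.74 in the poor lines, 0.00 and -1.42 in the good lines, -1.18 and 0.08 in the high lines and -0.91, 0.29 and -0.83 in the ESC lines. KH2_OSKM and Nanog-GFP OSKM#2 were the high lines, Nanog-GFP SNEL#3 and Nanog-GFP SNEL#2 the low ones, and arrays of a line differed by at most 0.41. Hoxc6, a forelimb-level gene, lay at -3.03, -4.35 and -2.87 in the poor lines, -4.36 and -5.25 in the good lines, -3.46 and -3.35 in the high lines and -3.66, -3.71 and -4.28 in the ESC lines, with Nanog-GFP SNEL#3 not well above background. KH2_OSKM and Nanog-GFP OSKM#2 were again the high lines in Hoxc6.

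Hoxc9, Hoxc10 and Hoxc11, which specify motor neurons and vertebrae of the thoracic to sacral levels, were high in Nanog-GFP SNEL#2, a line that was low in Hoxb4 and Hoxb13. Hoxc9 lay at -4.51, -3.44 and -2.25 in the poor lines, -3.90 and -4.67 in the good lines, -2.10 and -2.89 in the high lines and -4.73, -3.68 and -4.27 in the ESC lines. Nanog-GFP SNEL#2 and KH2_OSKM were the high lines in Hoxc9, with 0.95 as the largest difference between arrays of a line. Hoxc11 lay at -5.73, -6.69 and -4.82 in the poor lines, -5.37 and -5.37 in the good lines, -2.97 and -6.08 in the high lines and -7.19, -5.52 and -4.83 in the ESC lines. Nanog-GFP SNEL#2 was the highest line in Hoxc11, with its arrays at -2.91 and -3.03, above KH2_OSKM and Oct4-GFP ESCs, and neither array of Oct4-GFP OSKM#2, Nanog-GFP SNEL#3 or KH2 ESCs was well above background. Hoxc10 lay at -5.19, -5.86 and -3.45 in the poor lines, -5.03 and -4.71 in the good lines, -3.84 and -5.65 in the high lines and -5.52, -5.07 and -5.31 in the ESC lines, highest in KH2_OSKM, whose arrays differed by 2.61, and next in Nanog-GFP SNEL#2. Hoxb8 of the HoxB cluster had its highest line mean, -4.82, in Nanog-GFP SNEL#2 too, with 1 of 2 arrays above background.

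Hoxc12 and Hoxc13, known from hair follicles and nails, were the steadiest or went the other way. Hoxc13 lay at 0.46, 0.43 and 0.31 in the poor lines, 0.28 and 0.72 in the good lines, 0.63 and -0.12 in the high lines and 0.08, 0.35 and 0.58 in the ESC lines. Its range over lines was 0.84, Nanog-GFP SNEL#3 was its highest line and Oct4-GFP SNEL#1 its lowest, and the arrays of a line differed by at most 0.25. Hoxc12 lay at -3.63, -3.78 and -3.55 in the poor lines, -3.85 and -3.0 in the good lines, -3.55 and -4.59 in the high lines and -4.36, -4.75 and -3.92 in the ESC lines, again highest in Nanog-GFP SNEL#3. Nanog-GFP SNEL#3 was thus not the low line of every detected Hox gene. Hoxc5 and Hoxc8 were above background on 3 and 2 arrays.

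The HoxD cluster on chromosome 2 held genes whose lines differed in much the same way, high in KH2_OSKM and low in Nanog-GFP SNEL#3 and Nanog-GFP SNEL#2. Hoxd4, which marks the lower hindbrain, lay at -2.21, -2.48 and -0.64 in the poor lines, -1.31 and -5.64 in the good lines, -3.80 and -1.80 in the high lines and -3.23, -1.24 and -4.28 in the ESC lines. KH2_OSKM was the highest line, Nanog-GFP SNEL#3 was not well above background, and the arrays of a line differed by at most 0.85. Hoxd8 lay at -3.20, -3.41 and -2.89 in the poor lines, -4.10 and -6.02 in the good lines, -4.69 and -3.19 in the high lines and -4.75, -3.34 and -4.64 in the ESC lines, with the 3 poor lines and Oct4-GFP SNEL#1 and Nanog-GFP ESCs above the rest. Hoxd9, a forelimb and lumbar gene, lay at -3.80, -3.42 and -3.0 in the poor lines, -4.20 and -6.36 in the good lines, -6.43 and -3.12 in the high lines and -6.32, -3.65 and -6.28 in the ESC lines. In Hoxd9 the lines formed a high and a low set: 6 lines from -4.20 to -3.0, and Nanog-GFP SNEL#3, Nanog-GFP SNEL#2, KH2 ESCs and Oct4-GFP ESCs from -6.43 to -6.28, at which only 1 of 8 arrays was well above background. Hoxd1, the anterior gene of the cluster, lay at -4.87, -3.83 and -4.16 in the poor lines, -4.88 and -6.28 in the good lines, -7.08 and -3.60 in the high lines and -6.22, -4.60 and -6.13 in the ESC lines, and its 4 lowest lines were those 4 as well.

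Hoxd13, the gene at the posterior end that patterns digits, lay at -3.56, -3.11 and -2.78 in the poor lines, -3.56 and -6.07 in the good lines, -5.89 and -3.45 in the high lines and -4.12, -4.10 and -4.43 in the ESC lines. Neither array of Nanog-GFP SNEL#3 and Nanog-GFP SNEL#2 was well above background in Hoxd13, while all 16 other arrays were, and those 8 lines ranged from -4.43 to -2.78. The 4 OSKM lines ran from -3.56 to -2.78 and the 3 ESC lines from -4.43 to -4.10, and Oct4-GFP SNEL#1, at -3.45, lay within the OSKM range. The share of all genes with the OSKM lines above the ESC lines was not counted. With the 3 poor lines above the ESC lines it was 6.8%. Hoxd10, a hindlimb and motor neuron gene, lay at -4.48, -5.34 and -4.06 in the poor lines, -5.49 and -5.95 in the good lines, -6.30 and -4.87 in the high lines and -6.49, -5.77 and -5.75 in the ESC lines, and Hoxd11, a forearm gene, at -5.11, -5.32 and -4.22 in the poor lines, -4.32 and -6.29 in the good lines, -6.08 and -5.44 in the high lines and -4.33, -6.12 and -6.93 in the ESC lines. Both were near the detection limit, with 10 of 20 arrays above background, and arrays of a line differed by up to 2.11 in Hoxd10 and 4.72 in Hoxd11. All 8 arrays of the OSKM lines were above background for Hoxd11 and 1 of the 6 arrays of the SNEL lines was. A further Hoxd11 probe was above background on 1 array. Hoxd3 was above background on array 1 of KH2_OSKM alone.

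**Figure D3:**
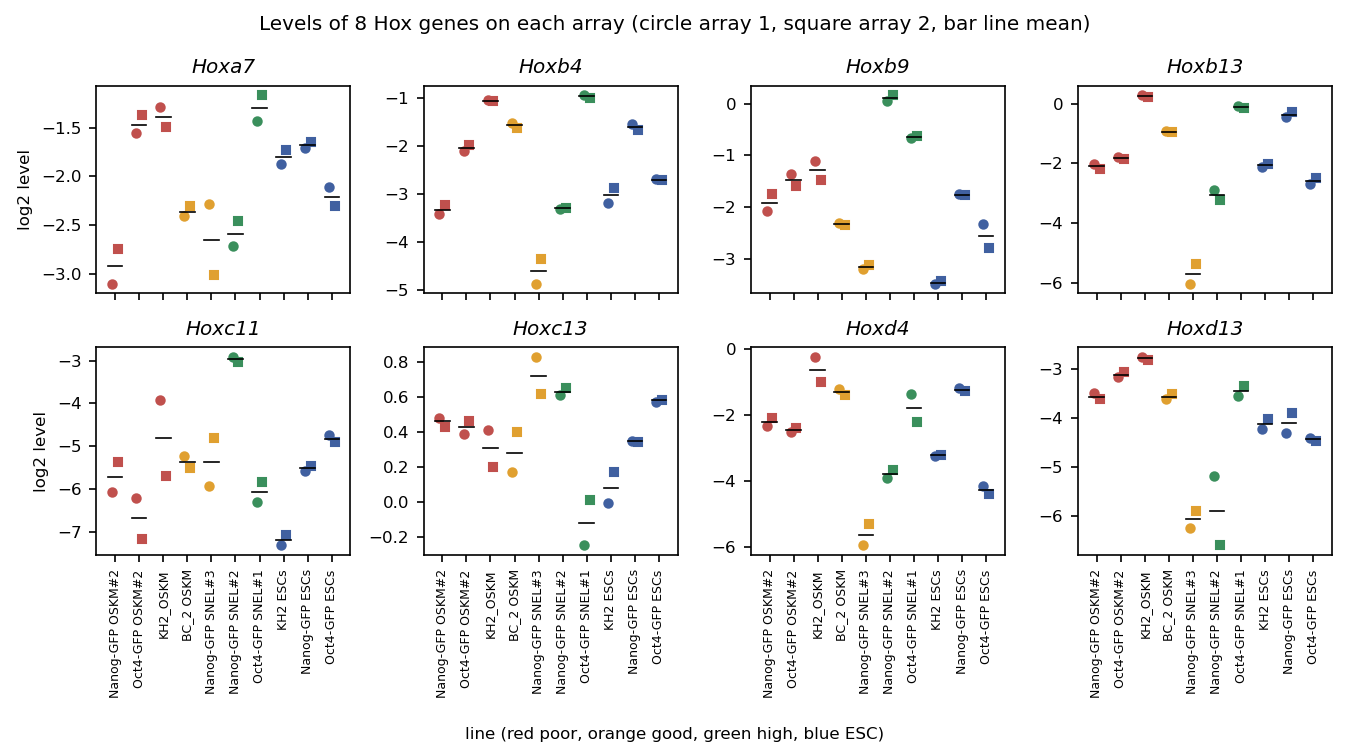
Log2 levels of 8 Hox genes on array 1 (circles) and array 2 (squares) of each line, with a bar at the line mean and colour by grade. The axes differ between panels. The arrays of a line lie close together for Hoxb4, Hoxb9, Hoxb13 and Hoxd4 relative to the gaps between lines, Nanog-GFP SNEL#2 stands above the other lines in Hoxb9 and Hoxc11, and the 2 Nanog-GFP SNEL lines stand below them in Hoxd13.

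Over the 25 genes, lines of the same grade lay far apart, with the highest mean in KH2_OSKM and the lowest in Nanog-GFP SNEL#3. The SD over lines had a median of 0.94 for these Hox genes, against 0.34 for all 24675 genes above background on at least 10 arrays, while the difference between arrays of a line had a median of 0.25 against 0.13. As the mean over the 25 genes of the difference from each gene's own mean, the lines ran from KH2_OSKM at 1.02, Oct4-GFP SNEL#1 at 0.51 and Nanog-GFP ESCs at 0.32, through BC_2 OSKM at 0.20, Oct4-GFP OSKM#2 at 0.13 and Nanog-GFP OSKM#2 at 0.06. Below 0 were Nanog-GFP SNEL#2 at -0.25, Oct4-GFP ESCs at -0.42, KH2 ESCs at -0.44 and Nanog-GFP SNEL#3 at -1.13. The means of the 2 arrays of a line differed by 0.59 for KH2_OSKM, 0.27 for Oct4-GFP SNEL#1, 0.24 for Oct4-GFP OSKM#2 and at most 0.09 for the other lines. KH2_OSKM and Oct4-GFP SNEL#1 lay closer together than the 2 arrays of KH2_OSKM, so their order is within that spread. The same holds for Oct4-GFP SNEL#1 and Nanog-GFP ESCs, and for BC_2 OSKM and Oct4-GFP OSKM#2. It also holds for Oct4-GFP OSKM#2 and Nanog-GFP OSKM#2, and for Oct4-GFP ESCs and KH2 ESCs. KH2_OSKM was the highest line for 14 of the 25 genes and among the highest 3 for 22. Nanog-GFP SNEL#3 was the lowest line for 11 and among the lowest 3 for 21. Array 1 of KH2_OSKM stood 1.42 above the other 9 lines over the 25 genes and its array 2 stood 0.84 above them, with 15 and 9 genes above every other line, so the high place of that line holds on the array with ordinary detection, at a smaller size.

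**Figure D4:**
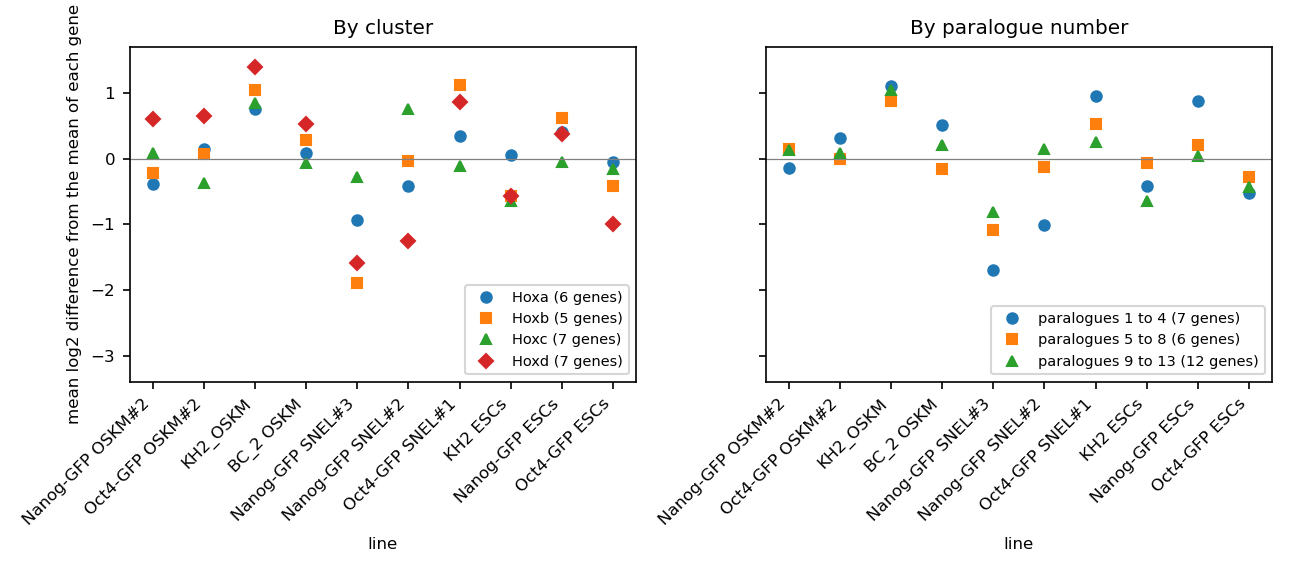
Mean log2 difference from the mean of each gene, over the detected genes of each cluster (left) and of each range of paralogue numbers (right), by line. In Nanog-GFP SNEL#2 the HoxC mean, 0.76, and the HoxD mean, -1.26, lie on opposite sides of 0, and in Nanog-GFP SNEL#3 the genes of groups 1 to 4 lie lowest, at -1.69.

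The clusters and the paralogue ranges did not go together in all lines. KH2_OSKM was above 0 in all 4 clusters, at 0.76 in HoxA, 1.05 in HoxB, 0.84 in HoxC and 1.39 in HoxD. Nanog-GFP SNEL#3 was below 0 in all 4, at -0.93, -1.90, -0.28 and -1.59. Nanog-GFP SNEL#2 split by cluster, at -0.42 in HoxA, -0.04 in HoxB, 0.76 in HoxC and -1.26 in HoxD, and by number, at -1.01 for groups 1 to 4, -0.13 for groups 5 to 8 and 0.14 for groups 9 to 13. Nanog-GFP ESCs also split by number, at 0.88, 0.21 and 0.04 in that order. The 4 OSKM lines were above 0 in HoxD, at 0.61, 0.65, 1.39 and 0.52, as were Oct4-GFP SNEL#1 at 0.86 and Nanog-GFP ESCs at 0.38. HoxD was below 0 in Nanog-GFP SNEL#3 and Nanog-GFP SNEL#2, in KH2 ESCs at -0.57 and in Oct4-GFP ESCs at -1.0.

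As a description, each gene was correlated over the 10 lines with the mean of the other 24 Hox genes, which share the same arrays and their detection differences. Pearson's r was above 0.8 for 9 of the 25 genes, among them Hoxa3, Hoxb4, Hoxb7, Hoxb13, Hoxc4, Hoxd4, Hoxd8 and Hoxd9, with 0.94 for Hoxb7 and 0.92 for Hoxb13, Hoxd4 and Hoxd8. It was below 0 for Hoxc11, Hoxc12 and Hoxc13, at -0.09, -0.42 and -0.56. Of 24650 other genes above background on at least 10 arrays, 4.41% had r above 0.8 with the mean of the 25. Without KH2_OSKM and Nanog-GFP SNEL#3, the lines at the ends, r stayed at 0.71 or above for Hoxb4, Hoxb7, Hoxb13, Hoxc4, Hoxd4, Hoxd8 and Hoxd9 and was 0.60 for Hoxa3. It turned from 0.42 to -0.69 for Hoxa6 and from 0.05 to -0.58 for Hoxa9. Pairs of genes within a cluster had a median r of 0.53 over 67 pairs, of 0.75 in HoxD over 21 pairs, 0.50 in HoxB over 10, 0.30 in HoxC over 21 and 0.23 in HoxA over 15. Paralogues of the same number had a median r of 0.37 over 22 pairs and the remaining 211 pairs 0.30.

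The group 4 paralogues Hoxb4, Hoxc4 and Hoxd4 lie on 3 chromosomes and were among the 9 genes above, and Hoxd13 had the smallest p of any Hox gene in the comparisons below. Their promoters are shown with CG dinucleotides, the sites of DNA methylation in mammals, in capitals, as the 250 bases before the RefSeq start in GRCm38.p6, all on the plus strand. Windows were given for 22 of the 39 genes, 24 in all. The windows lie at chr11:96318017-96318266 for Hoxb4, chr15:103034145-103034394 for Hoxc4, chr2:74721728-74721977 for Hoxd4 and chr2:74667975-74668224 for Hoxd13.
Hoxb4: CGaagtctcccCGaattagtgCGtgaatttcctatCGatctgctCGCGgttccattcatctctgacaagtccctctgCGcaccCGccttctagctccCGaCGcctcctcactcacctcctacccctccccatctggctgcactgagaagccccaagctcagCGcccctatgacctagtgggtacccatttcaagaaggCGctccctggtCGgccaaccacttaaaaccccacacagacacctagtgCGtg
Hoxc4: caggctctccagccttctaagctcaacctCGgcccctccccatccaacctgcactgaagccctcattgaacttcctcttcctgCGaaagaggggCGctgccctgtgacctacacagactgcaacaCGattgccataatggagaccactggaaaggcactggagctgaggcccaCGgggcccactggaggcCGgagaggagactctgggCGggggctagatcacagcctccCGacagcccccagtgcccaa
Hoxd4: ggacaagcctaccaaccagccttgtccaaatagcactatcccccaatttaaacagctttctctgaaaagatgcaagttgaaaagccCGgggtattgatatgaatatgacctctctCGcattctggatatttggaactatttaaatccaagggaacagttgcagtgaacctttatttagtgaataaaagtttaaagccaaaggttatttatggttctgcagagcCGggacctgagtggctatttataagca
Hoxd13: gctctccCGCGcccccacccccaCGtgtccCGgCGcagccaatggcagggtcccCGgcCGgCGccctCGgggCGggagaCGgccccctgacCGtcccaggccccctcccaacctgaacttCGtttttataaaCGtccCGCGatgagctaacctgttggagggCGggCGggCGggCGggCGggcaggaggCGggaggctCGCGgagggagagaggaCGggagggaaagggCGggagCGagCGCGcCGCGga

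The printed windows hold 14, 8, 3 and 31 CG dinucleotides, so that Hoxb4, Hoxc4 and Hoxd4 differed in CG content. Whether CG content goes with the pattern across lines was not tested over the Hox genes. Hox windows had a median of 12.5 CG dinucleotides against 6.0 in all 32851 windows of the table, and 9 of 24 (37.5%) held at least 15, against 27.3% of all windows. On both strands, TGATNNAT, a joint site of Hox and Pbx proteins, was found in 4 of 24 Hox windows (16.7%) and 7.68% of all, the Hox genes being Hoxa2, Hoxb1, Hoxb8 and Hoxd11. TTTATG, a Cdx site, was found in 5 of 24 Hox windows (20.8%), those of Hoxa7, Hoxb8, Hoxd3, Hoxd4 and Hoxd11, and in 10.8% of all. Of the printed windows that of Hoxd4 holds TTTATG and none holds TGATNNAT. A match is a description of these letters.

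In the comparison of 7 iPSC lines with 3 ESC lines, which asks how reprogrammed lines differ from the embryo-derived reference, no Hox gene passed. With limma and Benjamini-Hochberg adjustment, 0 of 30 Hox genes and 0 of 27156 genes (0.0%) had an adjusted p under 0.05, and at an unadjusted p under 0.05 there were 3 Hox genes and 2539 genes in all (9.35%). The median difference over the 30 Hox genes was 0.31 on the log2 scale against -0.04 over all genes, and 22 of 30 were higher in iPSC lines where 42.4% of all genes were. The Hox median was 0.46 with no filter on dim probes and 0.22 over genes on at least 10 arrays. Hoxb1 and Hoxd12, detected on no array, lay at -7.26 and -7.22 in iPSC lines and at -7.88 and -7.69 in ESC lines. The part that background plays in the Hox median was not tested. By cluster 7 of 7 HoxC and 7 of 7 HoxD genes had higher means, 5 of 7 HoxB and 3 of 9 HoxA genes. Over the alternatives the number of higher genes went down to 2 of 7 in HoxC and 5 of 7 in HoxD, and the medians ran from -0.05 to 0.69 in HoxC, from 0.11 to 1.01 in HoxD around 0.54, and from -0.48 to 0.73 in HoxB, so that the direction held for the HoxD median but not for the others. The smallest p was that of Hoxb2, at -6.05 ± 0.80 (SD, n = 7) in iPSC and -7.54 ± 0.36 (SD, n = 3) in ESC lines, a difference of 1.49 ± 0.49 (SE) with a limma adjusted p of 0.367. This difference was 0.87 with quantile normalization, 0.27 with normexp background correction, 0.21 by the authors' deposited values and 0.69 within slide 2. All 7 iPSC lines lay above the ESC lines in Hoxb2, which was true of 0.655% of all genes, but 4 of 14 iPSC arrays and 0 of 6 ESC arrays were well above background, and the arrays of BC_2 OSKM differed by 4.61, so most of these values were not well above background. Hoxb9 was 1.06 ± 0.38 (SE) higher in iPSC lines, at -1.53 ± 1.08 (SD, n = 7) against -2.59 ± 0.85 (SD, n = 3), with a limma adjusted p of 0.416. It was 0.63 without KH2 ESCs, and 1.96 and 0.35 within slides 1 and 2. Hoxb6 was 0.45 lower, a difference of -0.45 ± 0.19 (SE) with a limma adjusted p of 0.531, and was -0.08 with normexp correction, -0.26 by the authors' deposited values, -0.27 with slide as a block and -0.05 within slide 1. No Hox gene had all iPSC lines below the ESC lines, as 3.55% of all genes did. The median over Hox genes was 0.08 without KH2_OSKM, 0.48 without Nanog-GFP SNEL#3, 0.54 when Nanog-GFP ESCs was left out, 0.15 when Oct4-GFP ESCs was and 0.20 when KH2 ESCs was. By the authors' deposited values it was 0.17, and it was 0.71 within slide 1 and -0.03 within slide 2, so that its direction was not the same in both. KH2 ESCs was the only ESC line on slide 1, and slide 2 held the other ESC lines and no array of Oct4-GFP SNEL#1. The 2 slides therefore compare different lines, and slide and line cannot be told apart here.

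In the comparison of 3 poor lines with 3 ESC lines 26 of 30 Hox genes had higher means in the poor lines, where 46.1% of all genes did. The median was 0.69 over the Hox genes and -0.03 over all genes, and 1.14 over the 7 HoxD genes, all of them higher. The HoxD median ran from 0.46 with normexp correction to 1.75 within slide 1, with 6 or 7 genes higher in each alternative. Yet limma called 0 of 30 Hox genes and 0 of 27156 genes (0.0%), with 2 Hox genes and 2648 genes (9.75%) at an unadjusted p under 0.05. Hoxd10 was at -4.63 ± 0.65 (SD, n = 3) in poor and -6.01 ± 0.42 (SD, n = 3) in ESC lines, a difference of 1.38 ± 0.46 (SE) with a limma adjusted p of 0.370. Its within-slide differences were 3.63 and 0.62, and it was 0.36 with normexp correction and 0.52 by the authors' deposited values. Hoxb6 was the gene lower in poor lines without overlap, at -4.91 ± 0.16 against -4.23 ± 0.24 (SD, n = 3 each), with a limma adjusted p of 0.379. The difference in Hoxb6 was -0.19 within slide 1, where KH2 ESCs was the only ESC line, and -0.74 within slide 2, and it was -0.25 with normexp correction, -0.44 by the authors' deposited values and -1.05 with quantile normalization. Hoxb9, whose difference was 1.97 and 0.44 within slides 1 and 2 and 0.60 without KH2 ESCs, was at -1.56 ± 0.32 in poor lines and -2.59 ± 0.85 in ESC lines (SD, n = 3 each), a difference of 1.03 ± 0.45 (SE) with a limma adjusted p of 0.515. The largest difference in size was that of Hoxd9, 2.01 ± 1.04 (SE), with Nanog-GFP ESCs at -3.65 among the poor lines. In 4 of 30 Hox genes (Hoxb2, Hoxc12, Hoxd10 and Hoxd13) all poor lines were above all ESC lines, as in 6.80% of all genes, and in 1 all were below, as in 10.7%. Without KH2_OSKM the median over Hox genes was 0.26, by the authors' deposited values 0.27, with normexp correction 0.22, and within slides 1 and 2 it was 1.15 and 0.40. It was 0.64 with no filter on dim probes and 0.47 over genes on at least 10 arrays.

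In the comparison of 4 good and high lines with the 3 poor lines, which asks what goes with the grade, 24 of 30 Hox genes had lower means in the good and high lines. The median was -0.47 over Hox genes, -1.33 over the 7 HoxD genes, all lower, and -0.04 over all genes, of which 44.2% were higher. The HoxD median ran from -1.79 without Oct4-GFP SNEL#1 to -0.34 with normexp correction, with at most 1 of 7 genes higher. With limma 0 of 30 Hox genes and 0 of 27156 genes (0.0%) were called, and 2 Hox genes and 1402 genes (5.16%) had an unadjusted p under 0.05. Hoxd10 was at -5.65 ± 0.62 (SD, n = 4) in good and high and -4.63 ± 0.65 (SD, n = 3) in poor lines, a difference of -1.03 ± 0.43 (SE). Hoxd8 was at -4.50 ± 1.19 against -3.17 ± 0.26, and Hoxd13 at -4.74 ± 1.43 against -3.15 ± 0.39 (SD, n = 4 and 3). Their differences were -1.33 ± 0.57 and -1.59 ± 0.70 (SE), and all 3 genes had a limma adjusted p of 0.925. Hoxd10 differed by -1.93 and -0.34 within slides 1 and 2 and by -0.67 without array 1 of KH2_OSKM, and Hoxd8 by -0.83 without Nanog-GFP SNEL#3. With normexp correction Hoxd10, Hoxd8 and Hoxd13 differed by -0.12, -0.34 and -0.44, and by the authors' deposited values by -0.36, -0.61 and -0.80. No Hox gene separated the good and high lines from the poor lines, whereas 2.45% of all genes did so as higher and 3.38% as lower. Within the 4 good and high lines the HoxD means differed from each other more than the groups did, from -1.59 in Nanog-GFP SNEL#3 to 0.86 in Oct4-GFP SNEL#1. Without KH2_OSKM the median over Hox genes was -0.10, without its array 1 it was -0.25, and without Nanog-GFP OSKM#2 it was -0.79. It was -0.03 with normexp background correction, -0.15 by the authors' deposited values, and -0.66 and -0.49 within slides 1 and 2.

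**Figure D5:**
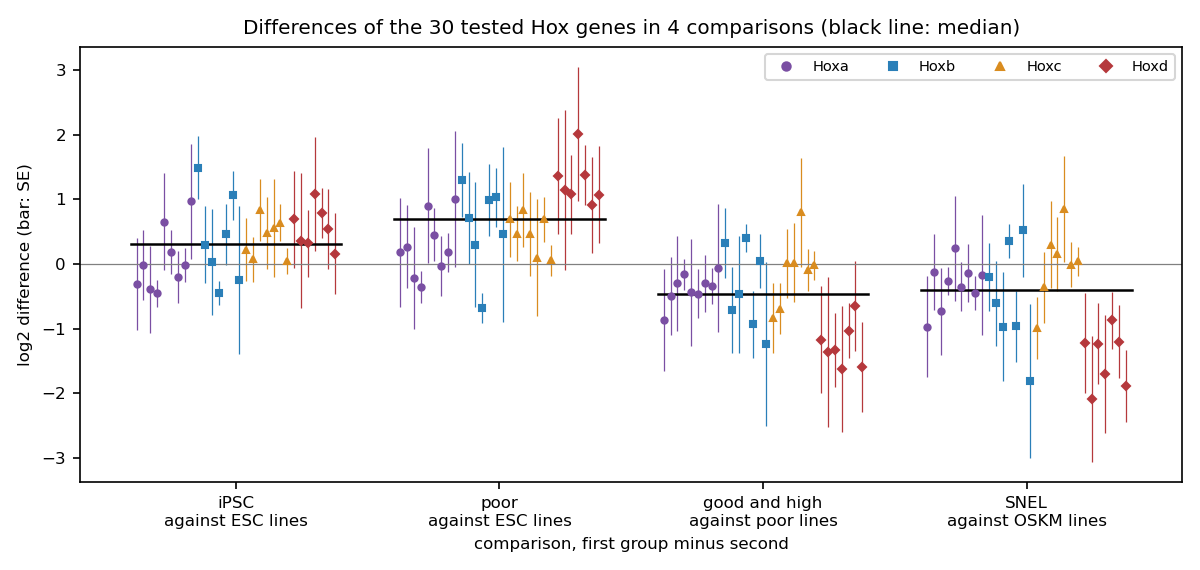
Log2 difference (bar: SE from limma) of the 30 tested Hox genes in 4 comparisons, by cluster, with the median as a black line. The 7 HoxD genes (diamonds) lie above 0 in the comparisons with ESC lines and below 0 in the other 2, and none of the 30 genes passed the threshold in any of them. The comparisons share lines.

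In the comparison of the factor sets, 3 SNEL against 4 OSKM lines, 23 of 30 Hox genes had lower means in SNEL lines and the 7 HoxD genes all did, with a HoxD median of -1.23. That median was -0.20 with normexp correction, -0.57 by the authors' deposited values and -2.24 without Oct4-GFP SNEL#1, and at most 1 of 7 genes was higher in any alternative. The median over the 30 was -0.41 against -0.02 over all genes, of which 48.1% were higher. With limma 0 of 30 Hox genes were called, against 2 of 27156 genes (0.00736%), and 1 Hox gene and 2552 genes (9.40%) had an unadjusted p under 0.05. That Hox gene was Hoxd13, at -5.14 ± 1.46 (SD, n = 3) in SNEL and -3.25 ± 0.38 (SD, n = 4) in OSKM lines, a difference of -1.89 ± 0.56 (SE) with a limma adjusted p of 0.508. The SNEL lines were not alike in it: both Nanog-GFP SNEL lines were not well above background and Oct4-GFP SNEL#1 lay among the OSKM lines. Leaving out Oct4-GFP SNEL#1 gave Hoxd13 a difference of -2.73 and a limma adjusted p of 0.00781, the 1 call of a Hox gene in any setting run. In that setting 338 of 27156 genes were called, against 2 with all lines. Within slides 1 and 2 the difference of Hoxd13 was -1.74 and -2.99, and it was -0.45 with normexp correction and -0.93 by the authors' deposited values. Hoxd4 was at -3.75 ± 1.92 (SD, n = 3) against -1.66 ± 0.85 (SD, n = 4), a difference of -2.09 ± 0.97 (SE) with a limma adjusted p of 0.538. It was -1.14 without Nanog-GFP SNEL#3 and -0.98 with normexp correction. Hoxd11 was at -5.94 ± 0.44 (SD, n = 3) in SNEL and -4.74 ± 0.55 (SD, n = 4) in OSKM lines, a difference of -1.20 ± 0.57 (SE) with a limma adjusted p of 0.545, and its SNEL lines lay below its OSKM lines, as in 4.13% of all genes, while no Hox gene had them all above, as 3.55% of all genes did. The difference of Hoxd11 was -0.03 after normexp background correction, -0.30 by the authors' deposited values and -1.01 and -2.02 within slides 1 and 2. With normexp correction the median over Hox genes was 0.02, so its direction turned, and it was -0.23 by the authors' deposited values, -0.26 with no filter on dim probes, -0.73 over genes on at least 10 arrays and -0.70 and -0.57 within slides 1 and 2. It was -0.62 without Nanog-GFP OSKM#2, -0.25 without KH2_OSKM, -0.72 when Oct4-GFP SNEL#1 was left out and -0.21 when Nanog-GFP SNEL#3 was.

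Every OSKM line but BC_2 OSKM is graded poor and every SNEL line good or high, so that grade and factor set cannot be told apart for the Hox genes in these lines. For the lines whose names share a prefix with an ESC line, a comparison added after the data were seen, the 25 genes did not differ in the same direction in all pairs. KH2_OSKM was above KH2 ESCs in 24 of 25 genes, with a median of 1.66, and Hoxd9 was 3.31 above. Oct4-GFP SNEL#1 was above Oct4-GFP ESCs in 18, with a median of 0.98, and Oct4-GFP OSKM#2 in 17, with a median of 0.55. Against Nanog-GFP ESCs, Nanog-GFP OSKM#2 was above in 11 of 25, with a median of -0.14, Nanog-GFP SNEL#2 in 10, with a median of -0.54, and Nanog-GFP SNEL#3 in 5, with a median of -1.40. Of all 24675 genes above background on at least 10 arrays, between 38.0% and 51.9% were higher in these 6 pairs, and each pair is 1 line against 1, with no test.

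The other gene groups that act with or on the Hox clusters had 0 members past the threshold in any of the 4 comparisons. The 11 TALE cofactors (Pbx, Meis, Pknox and Tgif genes), whose proteins bind DNA together with Hox proteins, were above background on both arrays of all lines. Meis3 was the cofactor of smallest p against ESC lines, lower in iPSC lines by a difference of -0.37 ± 0.11 (SE) with a limma adjusted p of 0.338, and in poor lines by -0.42 ± 0.13 with 0.353. Pbx3 had the smallest p in good and high against poor lines, at -0.49 ± 0.27 (SE) and a limma adjusted p of 0.925, and Meis1 in SNEL against OSKM lines, at 0.68 ± 0.28 and 0.517. The median TALE difference ran from -0.16 to 0.07 over the comparisons.

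Of the Polycomb genes, which keep the clusters silent, 12 of 12 PRC2 and 19 of 19 PRC1 genes were tested, and the trithorax list, which holds their opponents and the H3K27 demethylases, had 14 of 14. The median PRC2 difference ran from -0.05 to 0.07, the PRC1 median from -0.18 to 0.02 and the trithorax median from -0.06 to 0.08. Ezh2, the PRC2 methyltransferase, had the smallest PRC2 p against ESC lines, 0.17 ± 0.13 (SE, limma adjusted p = 0.819) for iPSC and 0.16 ± 0.15 (0.871) for poor lines. Phf1 had it in good and high against poor lines, 0.18 ± 0.15 (limma adjusted p = 0.932), and Ezh1 in SNEL against OSKM lines, -0.35 ± 0.21 (0.602). Of PRC1, Pcgf3 was at -0.26 ± 0.12 (SE, limma adjusted p = 0.573) in iPSC against ESC lines and -0.25 ± 0.13 (0.925) in good and high against poor lines, and Pcgf2 at -0.39 ± 0.19 (0.584) in poor against ESC lines. Of the trithorax list, Kdm5a had the smallest p in iPSC against ESC lines, at 1.48 ± 0.96 (SE, limma adjusted p = 0.764). That difference was made by the line mean of Oct4-GFP ESCs, -3.42, while the other 9 lines lay between 1.13 and 1.46. Kdm5a was above background on 19 of 20 arrays, so that mean may rest on 1 array, and its single arrays are not reported here. Ash2l had the smallest p in the other 3 comparisons, at 0.23 ± 0.19 (limma adjusted p = 0.819), -0.31 ± 0.17 (0.925) and -0.34 ± 0.15 (0.533).

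Of the Cdx and ParaHox group, homeobox genes related to the Hox genes or upstream of them, 8 of 10 genes were tested and the medians were -0.38, -0.23, -0.34 and 0.03 in the order of the comparisons above. Cdx1, an activator of Hox genes, lay at 0.13, 3.23 and 4.67 in the poor lines, 3.94 and 0.78 in the good lines, 1.95 and 3.62 in the high lines and 2.75, 2.67 and 3.25 in the ESC lines. Its low lines, Nanog-GFP OSKM#2 and Nanog-GFP SNEL#3, differed from its high line KH2_OSKM by more than 3 log2 units, and only Nanog-GFP SNEL#3 of those 2 was also low in the Hox mean. Cdx2 was highest in Oct4-GFP OSKM#2 at -1.30 and Oct4-GFP ESCs at -1.81, lines in the middle and lower part of the Hox order. The smallest p belonged to Gsx1 in both comparisons with ESC lines, 0.73 ± 0.42 (SE, limma adjusted p = 0.710) and 0.88 ± 0.50 (0.664), to Mnx1 in good and high against poor lines, -0.56 ± 0.58 (0.953), and to Gsx2 in SNEL against OSKM lines, -1.61 ± 0.90 (0.584).

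Of 21 genes of retinoic acid synthesis, breakdown and response 20 were tested, with medians of 0.03, 0.20, -0.15 and -0.02. Aldh1a2, which makes retinoic acid, was 0.58 ± 0.26 (SE) higher in iPSC lines with a limma adjusted p of 0.557 and 0.76 ± 0.31 higher in poor lines with 0.471. Crabp1, which binds retinoic acid in the cell, was at -1.06 ± 0.33 (SE, limma adjusted p = 0.925) in good and high against poor lines and -0.97 ± 0.35 (0.513) in SNEL against OSKM lines. Cyp26a1, a retinoic acid target that degrades it, lay at -6.07, -4.98 and -3.51 in the poor lines, -3.53 and -5.99 in the good lines, -5.01 and -2.66 in the high lines and -6.01, -4.37 and -5.38 in the ESC lines. Rarb, a retinoic acid receptor induced by its ligand, lay at -5.50, -5.22 and -4.20 in the poor lines, -4.08 and -4.70 in the good lines, -5.21 and -2.74 in the high lines and -4.64, -3.34 and -5.26 in the ESC lines. Both were chosen after their values were seen, and their highest line was Oct4-GFP SNEL#1, at 0.51 in the Hox mean. The mean difference from the gene means over the 20 genes was 0.64 in Oct4-GFP SNEL#1, 0.41 in KH2_OSKM, 0.27 in Nanog-GFP ESCs, 0.25 in BC_2 OSKM and 0.16 in Oct4-GFP OSKM#2. It was -0.22 in KH2 ESCs, -0.24 in Nanog-GFP OSKM#2, -0.29 in Oct4-GFP ESCs, -0.36 in Nanog-GFP SNEL#2 and -0.63 in Nanog-GFP SNEL#3. By this measure the 3 highest lines and the lowest line are those of the Hox mean. By the sum of the levels on the linear scale they are not. The highest sums were 129 in Oct4-GFP SNEL#1, 118 in Nanog-GFP ESCs and 113 in Oct4-GFP OSKM#2, with 97.4 in KH2_OSKM. Nanog-GFP OSKM#2 had the lowest sum, 86.6, and Nanog-GFP SNEL#3 had 88.6. The part of these genes in the Hox levels was not tested.

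Markers of differentiated cells also differed between lines. The fibroblast list, 20 of 23 genes tested, had a median difference of -1.70 in iPSC against ESC lines, with 19 of 20 genes lower, and 0 called by limma against 14 at an unadjusted p under 0.05. Its summed linear level was 3.87, 6.26 and 6.03 in the poor lines, 4.60 and 2.64 in the good lines, 3.64 and 14.7 in the high lines and 16.6, 12.8 and 9.73 in the ESC lines, in units of the 75th percentile of an array. By this sum fibroblast genes were high in Oct4-GFP SNEL#1 and Nanog-GFP ESCs, which were high in Hox genes. They were also high in KH2 ESCs and Oct4-GFP ESCs, which were low in Hox genes. KH2_OSKM, the highest Hox line, was at 6.03. By the mean difference from the gene means KH2_OSKM was at -0.31, above the other OSKM lines at -1.22, -1.11 and -0.49. It was then below Oct4-GFP SNEL#1 at 1.37 and the ESC lines at 0.93 to 1.56. The summed level of 7 mesoderm and primitive streak genes (of 10) ran from 4.57 to 7.30 in the poor, 5.31 to 6.45 in the good, 6.07 to 8.12 in the high and 6.43 to 7.98 in the ESC lines. That of 10 neural genes ran from 7.88 to 8.67, 5.46 to 7.74, 7.32 to 8.63 and 8.2 to 12. The 9 tested endoderm genes (of 10) summed to 0.882 to 2.08, 0.736 to 1.41, 0.698 to 2.03 and 0.973 to 1.88, with KH2_OSKM, Oct4-GFP SNEL#1 and Nanog-GFP ESCs highest, as in the Hox mean, at 2.08, 2.03 and 1.88. The part that any of these markers plays in the Hox levels was not tested, and in bulk RNA fewer cells with a transcript and less transcript per cell cannot be told apart. The smallest p of the fibroblast list belonged to Ccdc80 in all 4 comparisons, with limma adjusted p of 0.226, 0.187, 0.905 and 0.487, and of the neural list in SNEL against OSKM lines to Olig2, at -3.53 ± 0.81 (SE) and 0.458.

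Between the outermost Hox probes of each cluster lay 39 further probes under other names, 6 in HoxA, 22 in HoxB, 6 in HoxC and 5 in HoxD (mm9). Of these 12 were above background on 20 arrays and 11 on none. AI448005, at chr2:74569698-74569757 between the probes of Hoxd4 and Hoxd3, lay at -1.96, -1.95 and -0.25 in the poor lines, -0.60 and -4.82 in the good lines, -3.32 and -0.63 in the high lines and -2.97, -0.35 and -3.44 in the ESC lines. Over the 10 lines it followed the mean of the Hox genes with r = 0.93, and it was highest in KH2_OSKM and lowest in Nanog-GFP SNEL#3. Hoxa11as, a transcript antisense to Hoxa11, was above background on 20 arrays, at levels from -4.37 to -2.94, where Hoxa11 was above background on 2, and its r with the Hox mean was 0.04.

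HOTAIR, a noncoding RNA of the HoxC cluster known in human cells for its link to Polycomb proteins, had 5 probes, of which 1 was above background on 20 arrays and 4 on 0. The bright probe lies at chr15:102774847-102774906 and a dim neighbour at chr15:102774643-102774702, both on the minus strand, and their first 30 bases are printed because a HOTAIR value depends on which of them is read.
HOTAIR probe above background: tcattgcttcctgattttgggtgactcttt
HOTAIR probe not above background: ggctgatatgcactttgtatgtgtgtaaga

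By the bright probe HOTAIR was at -2.73, -2.41 and -3.03 in the poor lines, -2.76 and -2.59 in the good lines, -2.81 and -2.36 in the high lines and -2.40, -1.69 and -1.82 in the ESC lines. It was 0.70 lower in iPSC lines, a difference of -0.70 ± 0.21 (SE) with a limma adjusted p of 0.330, and -0.75 ± 0.25 with 0.374 in poor against ESC lines. In the same list of noncoding RNAs and neighbouring genes, 12 of 17 tested, Smug1 had the smallest p in good and high against poor lines, at -0.24 ± 0.15 (SE, limma adjusted p = 0.925), and Mtx2, next to HoxD, in SNEL against OSKM lines, at -0.26 ± 0.11 (0.524). The medians of that list were 0.01, 0.02, -0.01 and 0.12.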

How the data were processed

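RNA of 10 lines was hybridized to 20 arrays. Per the file headers, spots were read with Feature Extraction, and the deposited intensity values used here (processed signal) are background-subtracted. The deposited log2 value table was used as an alternative: its ranks follow the scanner's mean signal (rank correlation 0.9988), and whether its genes were centred is not stated. The submitters' processing notes name limma, and probe coordinates are those of mm9, per the file headers.

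Of 62976 spots 59305 were not controls. Outlier flags were set to missing, repeated spots averaged (55681 probes), and each array's 75th percentile, which was a signal between 513 and 914, subtracted on the log2 scale. Probe names were updated through RefSeq accessions where these matched (26413 probes), 0 values were saturated, and 38747 probes well above background on at least 4 arrays gave 27156 genes by their brightest probe. The arrays of a line were averaged first and limma 3.58.1 (R 4.3.3) was fitted to 10 lines with the grades, or the factor sets, as groups, 2-sided, with Benjamini-Hochberg adjustment over all genes at 0.05. The fit was tested on simulated data. Slides were treated as batches within slides 1 and 2 and as a block.

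Members and lists were chosen with earlier results of these data known. Genes described by line are Hox genes above background on at least 10 arrays, past the threshold, among the 3 smallest p of a comparison, or above background on both arrays in 1 to 3 lines. Of the groups that act with or on the clusters, the member of smallest p is named for most comparisons. Of the marker lists it is named for the fibroblast list and, in SNEL against OSKM lines, for the neural list. It is not named for the pluripotency, mesoderm and endoderm lists. Alternatives were other scalings, background correction (normexp, offset 50), filters, probe rules, blocks, the authors' value table and leaving out each line. Cross-hybridization between Hox paralogues was not tested. Exon and UTR positions of the probes were not used here. The values of some single genes are not reported here, though counts and medians over the lists include them.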

Additional observations from a re-analysis of the deposited data

Results flagged for a closer look

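Among the 25 Hox genes above background on at least 10 arrays and the count of detected Hox genes, 52 sets of lines (the 7 iPSC lines or the 4 OSKM lines) were examined for a line far from the others, and about 1 in 20 would be marked by chance. The level of Hoxa6 in KH2_OSKM, at -2.84, was the 1 value so marked, since the next of the 7 iPSC lines lay at -3.94 and the gap was 0.68 of the whole range. In Hoxa6 the arrays of a line differed by up to 2.21.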

How the results depend on the processing

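The counts of Hox genes past the threshold stayed at 0 in iPSC against ESC, poor against ESC, and good and high against poor lines under every alternative run, with lowest adjusted p of 0.246, 0.300 and 0.555. In SNEL against OSKM lines it ranged from 0 to 1 when each line was left out, the 1 being Hoxd13 without Oct4-GFP SNEL#1, where 338 of 27156 genes were called, and was 0 otherwise. The median Hox differences moved by less than the spread of line medians within groups under all alternatives, over -0.03 to 0.71, 0.22 to 1.15, -0.79 to -0.03 and -0.73 to 0.02 in the 4 comparisons, crossing 0 within slide 2 in the first and with normexp correction in the last. The HoxD median kept its sign but not its size, over 0.11 to 1.01, 0.46 to 1.75, -1.79 to -0.34 and -2.24 to -0.20. HoxD genes that were higher in iPSC than in ESC lines were down to 5 of 7 within slide 2 and without Oct4-GFP ESCs. Leaving out array 1 of KH2_OSKM, an alternative chosen after seeing the data, gave 0.25, 0.55, -0.25 and -0.32.

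The labels give the array number, 1 or 2, no shared source. Deviations of array 1 from the line mean correlated from -0.10 to 0.51 over 45 pairs of lines, with a median of 0.17 and above 0.1 in 29, so that most but not all pairs deviated together and the lines were not treated as paired. With the replicate block the Hox medians were 0.31, 0.69, -0.47 and -0.41, and 0 Hox genes were called.

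Detection depended on the rule. Counting a gene on at least 1 of 2 arrays gave 37 Hox genes in KH2_OSKM and 30 in Oct4-GFP SNEL#1. The scanner's weaker flag, positive and significant, gave 34 in KH2_OSKM, 17 in Nanog-GFP SNEL#3, 25 in Nanog-GFP SNEL#2 and 27 in Oct4-GFP SNEL#1. Nanog-GFP SNEL#3 had the fewest under every rule. A group left with 1 line is assumed to vary like the others. Signal over background limits the 14 genes seen on under 10 arrays.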

Other observations

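Of the 200 spot values of Hoxb1, 7 carried the well-above-background flag, and all 7 had also been flagged as outliers. A probe counted as detected on an array only when most of its spots there carried that flag. Whether Hoxb1 would count as detected on any array with the outlier spots kept was not tested. The detection of HOTAIR depended on the probe, with 20 of 20 arrays above background by 1 probe and 0 of 20 by a neighbour on the same strand. The cause was not tested.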
